A study of Homo sapiens with 6 samples.

Results

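Genes of cytokinesis, the step in which a dividing cell splits its cytoplasm, were followed in PANC-1, a cell line long kept in culture from a human ductal carcinoma of the pancreas. They were taken from the expression table by gene symbol: ANLN, ECT2, RACGAP1, PRC1, CIT, CEP55, ASPM and RHOA, 8 of the 58735 genes listed. Cells received control siRNA (si-NC, 3 samples; control) or siRNA against METTL16, an RNA N6-adenosine methyltransferase (si-METTL16, 3 samples; silenced), and the methods call the samples of each group biological triplicates. The labels name no deletion and no other agent, while the methods speak of stable transfection for sequencing and of puromycin selection of stable cells. All 6 samples came from this 1 line, and one label of the si-NC samples reads WT where their titles read si-NC. Several siRNAs against METTL16 are listed in the sources, which do not say which of them these samples received. The question was how the transcripts of the dividing machinery differed once METTL16 was silenced.

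During cytokinesis the central spindle, a bundle of antiparallel microtubules left between the separating chromosomes, marks the place of the cut. PRC1 bundles these microtubules, and centralspindlin, a complex of RACGAP1 and the kinesin KIF23, gathers there. RACGAP1 binds ECT2, the exchange factor that loads the small GTPase RHOA with GTP at the cell equator. Active RHOA drives an actin and myosin ring, for which anillin (ANLN) is the scaffold and citron kinase (CIT) a RHOA-binding kinase that organises the midbody. CEP55 then recruits the ESCRT machinery that severs the last bridge, and ASPM works at spindle poles and, with CIT, is a gene of inherited primary microcephaly. The genes of this machinery are known to peak in G2 and mitosis, with RHOA as a GTPase that cells use at all times.

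The promoters of these genes were read first, with the changes of the members already known. Whether the letters found bear on those changes was not tested. RefSeq promoters (GRCh38.p14, windows of 300 bases that hold the start site) matched 7 of the 8 genes, ECT2 by 2 entries, and RACGAP1 had none. The letters TTTGAA or their reverse complement TTCAAA, the core of the cell cycle genes homology region (CHR), which the MuvB complexes bind, were found in 6 of the 7 (ANLN, ASPM, CEP55, CIT, ECT2 and PRC1), against 15.2% of all 35116 promoter entries. The promoter of RHOA did not hold these letters. CCAAT or ATTGG, the box bound by NF-Y, stood in 6 of the 7 as well, RHOA among them and ANLN not, against 34.6% of all entries. Rarer letters were TTTAAA, a variant CHR core, in ASPM (12.2% of all entries), the E2F site TTCCCGC or its reverse complement in CEP55 (6.55%) and TTGGCGC or its reverse complement in ECT2 (3.04%), where it overlaps a CCAAT box. The stretches below are printed to show how these letters lie in 4 genes that hold the CHR letters and in RHOA. RHOA was called higher like the other members, though by the least, and RACGAP1, with the next smallest rise, had no entry to compare. Each stretch runs 5′ to 3′ on the strand of the gene, from 150 bases before the start site to 30 after it. All the searched letters are in capitals.
ANLN (chr7:36389712-36389891, plus strand): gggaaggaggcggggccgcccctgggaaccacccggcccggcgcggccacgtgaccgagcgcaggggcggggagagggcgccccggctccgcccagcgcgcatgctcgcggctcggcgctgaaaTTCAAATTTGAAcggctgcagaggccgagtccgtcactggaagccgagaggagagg
CEP55 (chr10:93496462-93496641, plus strand): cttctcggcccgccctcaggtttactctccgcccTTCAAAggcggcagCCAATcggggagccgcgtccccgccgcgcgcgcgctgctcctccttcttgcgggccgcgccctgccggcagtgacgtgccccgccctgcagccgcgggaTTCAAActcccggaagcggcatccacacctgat
PRC1 (chr15:90994506-90994685, minus strand): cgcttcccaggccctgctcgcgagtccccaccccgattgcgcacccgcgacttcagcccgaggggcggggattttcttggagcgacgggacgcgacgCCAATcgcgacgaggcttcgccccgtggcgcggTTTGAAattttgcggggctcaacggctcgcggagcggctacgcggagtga
ASPM (chr1:197146640-197146819, minus strand): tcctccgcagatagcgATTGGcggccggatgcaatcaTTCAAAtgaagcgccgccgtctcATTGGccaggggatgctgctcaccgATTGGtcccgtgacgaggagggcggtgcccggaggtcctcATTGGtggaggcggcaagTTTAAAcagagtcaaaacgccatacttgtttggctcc
RHOA (chr3:49411947-49412126, minus strand): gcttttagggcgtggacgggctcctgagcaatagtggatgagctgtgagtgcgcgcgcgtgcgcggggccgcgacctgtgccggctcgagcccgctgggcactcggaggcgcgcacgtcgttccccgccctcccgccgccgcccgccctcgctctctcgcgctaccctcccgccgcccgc
In ANLN the CHR letters occurred on both strands side by side, beginning 26 and 20 bases before the start site. In PRC1 a CCAAT box 53 bases upstream was followed by TTTGAA 20 bases upstream. CEP55 held TTCAAA at 116 and 3 bases upstream, with CCAAT at 102 bases. The stretch of ASPM carried ATTGG 4 times, at 134, 90, 65 and 25 bases upstream. That of RHOA has no capitals, since its one ATTGG begins 166 bases upstream, outside the stretch. A match of letters is a description of the sequence and not a binding site, and their absence in a window says nothing of a factor.

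Total counts ran from 15725298 to 18054436 per sample, so that 3 counts correspond to between 0.166 and 0.191 CPM, the count scaled for library size; CPM of genes below are scaled by TMM as well. METTL16 itself, the targeted gene, had 1546, 1641 and 1764 counts in control and 571, 528 and 627 in silenced samples, which leaves 35.9% of the control level (log2 fold change -1.48, SE 0.07, edgeR adjusted p = 8.34e-05). The epithelial keratins KRT8 and KRT18 were at or above 120 FPKM (counts scaled to the sample total and to the kilobases of the gene) in 6 of 6 samples, while acinar, endocrine and endothelial markers each summed to at most 0.481 FPKM in any sample. The ductal keratin KRT19 was at 38.7 to 50.1 FPKM in control and 12.4 to 19.7 FPKM in silenced samples, and KRT7 did not exceed 1.10 FPKM. The other epithelial markers were low. EPCAM was at 1.31 to 2.18 FPKM in control and 1.88 to 2.93 FPKM in silenced samples, and CDH1 at 1.21 to 2.12 FPKM and then 0.702 to 0.819 FPKM. Of the fibroblast markers, COL1A1 was at 25 to 28.9 FPKM in control and 60.8 to 64.4 FPKM in silenced samples, while DCN and LUM stayed at or under 0.0925 FPKM. Of the leukocyte markers, CD68 was at 1.16 to 1.19 FPKM and then 1.62 to 1.99 FPKM, with PTPRC at most 0.0237 FPKM and CD3E at 0. The part of these markers in the results below was not tested.

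All 8 cytokinesis genes passed the filter on low counts and all 8 were significantly higher in si-METTL16 cells, by between 1.12-fold (RHOA) and 2.81-fold (CIT). CIT, CEP55, ECT2, ASPM, ANLN and PRC1 at least doubled, with log2 fold changes (log2FC) from 1.05 to 1.49. RACGAP1 rose by 1.30-fold and RHOA by 1.12-fold. Of the 15089 genes tested, 18.4% were called higher and 17.5% lower at an adjusted p under 0.05 (35.9% in either direction), and 4.40% were called with a log2FC of at least 1. The median log2FC was 1.24 over the 8 genes and -0.00 over all tested genes. Values of the 2 groups did not overlap for any of the 8, all of them higher after silencing, a pattern met by 25.7% of tested genes in that direction and by 50.9% in either. In bulk RNA a larger share of cells in G2 and mitosis cannot be told apart from more transcript per cell. If the replicates were not separate cultures, the p-values measure only the spread between these samples.

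**Figure D1:**
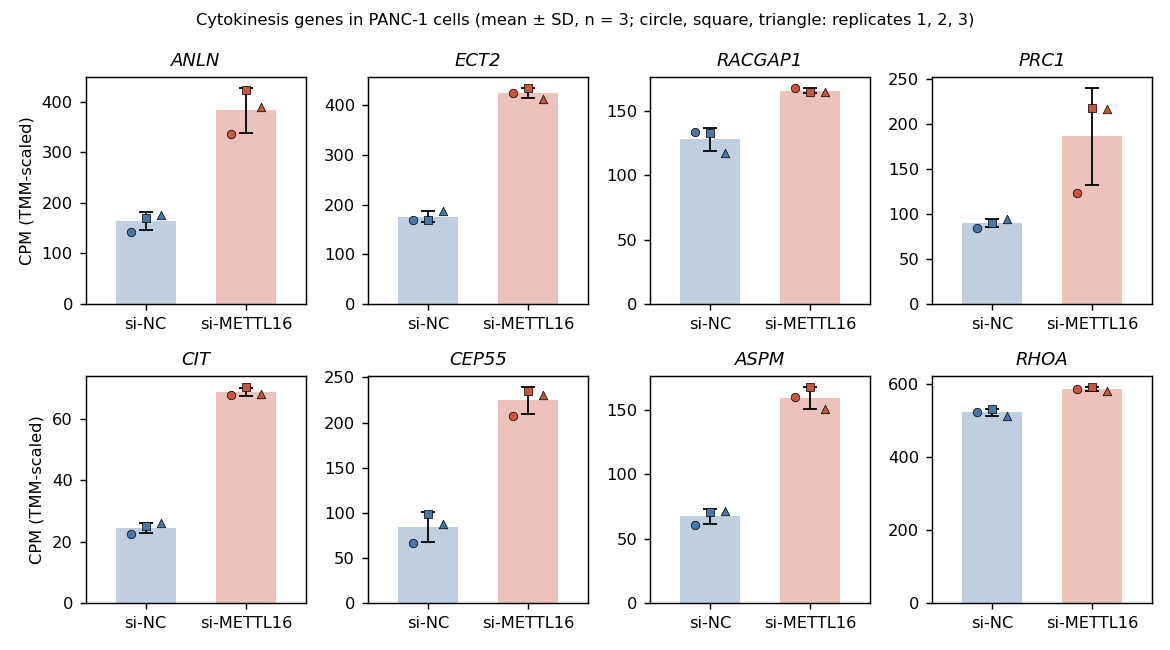
TMM-scaled CPM of the 8 cytokinesis genes in si-NC (blue) and si-METTL16 (red) samples, 1 panel per gene with its own axis from 0; bars are means, error bars SD (n = 3), and symbols mark replicates 1, 2 and 3. Every red point lies above every blue point, by the smallest ratio in RHOA (512 to 531 CPM against 580 to 591 CPM), and replicate 1 of si-METTL16 lies far under the other two in PRC1.

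At the central spindle, PRC1 (chromosome 15, 90966038 to 90995629, whole-gene coordinates of the deposited table on GRCh38, as for the genes below) had 84.7, 90.3 and 94.5 CPM in control and 124, 218 and 216 CPM in silenced samples. The groups stood apart, but si-METTL16 replicate 1 was much nearer to the controls than to replicates 2 and 3. The log2FC was 1.05 (SE 0.21, edgeR adjusted p = 0.00734), the widest error among the 8 genes. The coefficient of variation of PRC1 was 29.0% in si-METTL16, where genes of at least 24.5 CPM had a median of 6.48% and a 95th percentile of 27.8%. PRC1 shares 3181 exonic bases with a read-through gene on the same strand (ENSG00000284946, AC068831.7 in the table, chromosome 15), which joins PRC1 exons to sequence further upstream. That gene had 305, 316 and 363 counts in si-NC samples, and 1639, 543 and 496 counts in si-METTL16 samples 1, 2 and 3. In the sample where PRC1 was low, the read-through gene was high. It held 44.7% of the joint counts there, against 11.3% to 18% in the other 5 samples.

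The counts of both genes were then summed, a step chosen after seeing them. Any reads of the read-through gene outside the shared exons are included, since counts per gene cannot separate them. The sums came to 103, 109 and 115 CPM in control and 224, 253 and 244 CPM in silenced samples, and replicate 1 no longer stood apart. The summed PRC1 locus was thus at 109 ± 6.19 (SD, n = 3) in control and 240 ± 15 (SD, n = 3) in silenced cells, a coefficient of variation of 6.23%. Its log2FC was 1.14 with a standard error of 0.07, against 0.21 for PRC1 alone, and the edgeR adjusted p was 0.000120. The read-through gene taken alone had a log2FC of 1.5 (SE 0.46, edgeR adjusted p = 0.0406); its replicate 1 was at 99.9 CPM, far over the 34.8 and 27.6 CPM of replicates 2 and 3. How the counting program shared reads between these genes was not given in the sources used here.

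**Figure D2:**
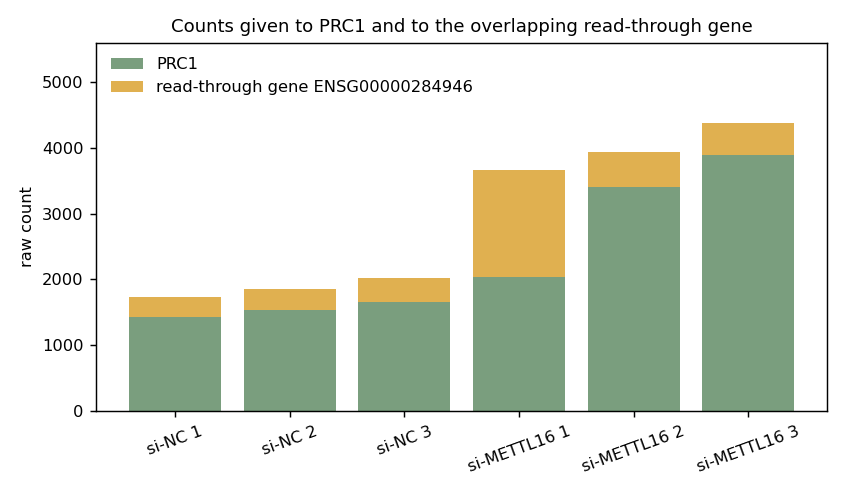
Raw counts of PRC1 (green) and of the read-through gene that shares its exons (yellow), stacked for each of the 6 samples. The stacks of the silenced samples reach 3669 to 4385, all above those of the control samples, and the yellow part is largest in si-METTL16 replicate 1, at 1639.

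RACGAP1 (chromosome 12, 49976923 to 50033136), the GTPase-activating subunit of centralspindlin, had 134, 133 and 118 CPM in control and 168, 165 and 165 CPM in silenced samples. Its silenced samples lay within a coefficient of variation of 1.17%, and the rise was small, with a log2FC of 0.37 (SE 0.07, edgeR adjusted p = 0.00479). KIF23, the kinesin subunit of the same complex, had a log2FC of 1.05 (SE 0.08, edgeR adjusted p = 0.000205). The log2 ratio of RACGAP1 to KIF23 FPKM was 1.43, 1.29 and 0.97 in control and 0.55, 0.55 and 0.56 in silenced samples. The ratio thus fell by 0.67 on the log2 scale, from 2.34 to 1.47 RACGAP1 per KIF23, in FPKM, and the groups did not overlap.

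ECT2 (chromosome 3, 172750682 to 172821474), the exchange factor that RACGAP1 recruits, had 169, 169 and 188 CPM in control and 425, 434 and 413 CPM in silenced samples. Its groups were far apart relative to their spread, and the log2FC of 1.28 had a standard error of 0.06 (edgeR adjusted p = 8.58e-05). Relative to RACGAP1, ECT2 stood at a log2 FPKM ratio of 0.20, 0.21 and 0.54 in control and 1.2, 1.26 and 1.19 in silenced samples, a difference of 0.90. RHOA (chromosome 3, 49359145 to 49412998) had 522, 531 and 512 CPM in control and 585, 591 and 580 CPM in silenced samples. The 2 groups were separated by a narrow gap, and the log2FC was 0.17 (95% interval 0.06 to 0.27, edgeR adjusted p = 0.0237). Of the 15089 tested genes, 35.7% had a higher log2FC than RHOA. The call of RHOA did not hold in 4 of the 6 fits that left out 1 sample, those without si-NC replicate 1 or 3 or without si-METTL16 replicate 1 or 2 (edgeR adjusted p from 0.0533 to 0.0858).

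ANLN (chromosome 7, 36389806 to 36453791), the ring scaffold, had 143, 171 and 176 CPM in control and 336, 424 and 388 CPM in silenced samples. The log2FC was 1.23 (SE 0.11, edgeR adjusted p = 0.000358). MYH9, the main non-muscle myosin heavy chain of the ring by FPKM here, was at 81.6 ± 4.14 FPKM (SD, n = 3) in control and 80.8 ± 2.48 FPKM (SD, n = 3) in silenced cells and was not called (log2FC 0.01, edgeR adjusted p = 0.944). The log2 ratio of ANLN to MYH9 accordingly went from -2.35, -2.23 and -2.16 to -1.2, -0.83 and -1.04, so that ANLN stood at 0.211 of the MYH9 FPKM in control and at 0.492 in silenced cells.

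CIT (chromosome 12, 119685790 to 119877291), the midbody kinase, was the lowest of the 8 genes and had the highest log2FC among them in this fit. CEP55 was above CIT without si-NC replicate 2 (1.55 against 1.5) and with limma on log2(FPKM + 1) (1.38 against 0.94) or log2(FPKM + 0.1) (1.41 against 1.39). CIT had 22.5, 25 and 26 CPM in control and 68.0, 70.5 and 68.3 CPM in silenced samples. Both groups were tight, and the log2FC of CIT was 1.49 (SE 0.08, edgeR adjusted p = 9.39e-05), a value exceeded by 1.67% of tested genes. KIF14, the kinesin that binds CIT at the midbody, rose with a log2FC of 1.27 (SE 0.07, edgeR adjusted p = 9.66e-05). The log2 ratio of CIT to KIF14 was -1.81, -1.76 and -1.59 in control and -1.45, -1.50 and -1.52 in silenced samples, a difference of 0.23 with little room between the groups.

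CEP55 (chromosome 10, 93496632 to 93529092), which brings the abscission machinery to the midbody, had 66.1, 99.1 and 86.9 CPM in control and 208, 235 and 231 CPM in silenced samples. Replicate 1 was the lowest of its group in both conditions, and the si-NC samples varied more (19.8%) than the si-METTL16 samples (6.64%). The log2FC was 1.42 (SE 0.14, edgeR adjusted p = 0.000498). Its partner PDCD6IP, which encodes the ESCRT adaptor ALIX, went the other way, from 10.5 ± 1.31 FPKM (SD, n = 3) to 8.06 ± 0.590 FPKM (SD, n = 3), with a log2FC of -0.36 (edgeR adjusted p = 0.0316). The log2 ratio of CEP55 to PDCD6IP rose from 0.65, 1.45 and 1.40 in si-NC to 2.73, 3.12 and 3.02 in si-METTL16 samples. This difference of 1.79 was the largest of the 7 partner ratios computed.

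ASPM (chromosome 1, 197084128 to 197146694), the spindle pole protein, had 60.3, 70.5 and 71.1 CPM in control and 160, 168 and 151 CPM in silenced samples. All silenced samples had more than 2 times the CPM of any control, and the log2FC was 1.24 (SE 0.08, edgeR adjusted p = 0.000148).

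For the 7 partner ratios a two-sided exact permutation test over all 20 assignments of the group labels was used. The smallest p that 3 samples against 3 allow is 0.1, and 6 ratios reached it (0.117 after Benjamini-Hochberg adjustment over the 7), so none could pass the threshold in this design. RHOA to RHOC, its paralog, was the one ratio whose groups overlapped (4.28, 4.18 and 4.37 in control, 4.63, 4.96 and 4.10 in silenced samples on the log2 scale, exact permutation p = 0.4). PRC1 to KIF4A, the kinesin that PRC1 recruits, was at -1.0, -1.06 and -0.94 in control and -1.88, -1.19 and -1.13 in silenced samples. That difference of -0.40 became -0.16 without si-METTL16 replicate 1 and -0.26 with the counts of the PRC1 read-through gene added.

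**Figure D3:**
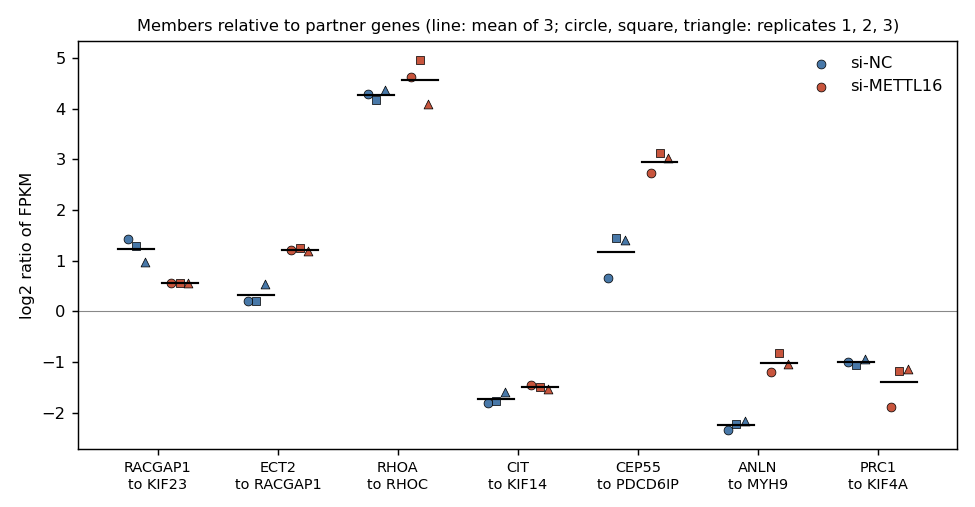
Log2 ratio of deposited FPKM of 7 gene pairs in each sample, si-NC in blue and si-METTL16 in red; short lines are means of 3 and symbols mark the replicates. CEP55 to PDCD6IP shows the widest shift, from a mean of 1.17 to 2.96, RACGAP1 to KIF23 shifts downward from 1.23 to 0.55, and RHOA to RHOC overlaps.

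Compared per length, the deposited FPKM ordered the genes in si-NC cells as RHOA (122 ± 2.19), CEP55 (23.8 ± 4.72), ECT2 (17.4 ± 1.10), ANLN (17.3 ± 1.92), RACGAP1 (14 ± 0.967), PRC1 (7.13 ± 0.393), ASPM (6.03 ± 0.548) and CIT (1.07 ± 0.0779), SD over n = 3. CEP55 and ECT2, and ECT2 and ANLN, overlapped in their samples; the other neighbours in this order did not. In si-METTL16 cells the order of the means of the deposited FPKM was the same, with RHOA at 135 ± 1.18 and CEP55 at 62.6 ± 4.41. RACGAP1 (17.9 ± 0.126 FPKM) was far under ANLN (39.9 ± 4.76 FPKM). In these cells only ECT2 and ANLN, and PRC1 and ASPM, overlapped among neighbours.

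The gene lengths behind these FPKM values, recovered as count over FPKM and total, were between 1.03 (ASPM) and 4.12 times (PRC1) the length of the MANE Select transcript of GENCODE v44. For PRC1 the length was 12669 bases against 3072, for CIT 22928 against 8736 and for ASPM 11231 against 10863. With the MANE lengths, a choice made after seeing this, the FPKM recomputed for si-NC cells were 291 for RHOA, 42.6 ± 2.70 for ECT2, 41.5 ± 2.86 for RACGAP1, 34.7 ± 3.85 for ANLN, 31.8 ± 6.31 for CEP55, 29.4 ± 1.62 for PRC1, 6.23 for ASPM and 2.82 for CIT (SD, n = 3). CEP55 moved from the second to the fifth place, ECT2 and RACGAP1 moved up, and RHOA, ANLN, PRC1, ASPM and CIT kept their places. Neighbours from ECT2 down to PRC1 overlapped in their samples, except RACGAP1 and ANLN. With these lengths the order was not the same in si-METTL16 cells. Below RHOA came ECT2 (102 ± 2.34), CEP55 (83.7 ± 5.91), ANLN (80.2 ± 9.56), PRC1 (60.1 ± 17.6) and RACGAP1 (52.9 ± 0.372), SD over n = 3. RACGAP1 thus lay above ANLN in si-NC and below it in si-METTL16 samples, without overlap, while PRC1 and RACGAP1 overlapped after silencing. Fold changes do not depend on this length, which is the same in all samples.

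**Figure D4:**
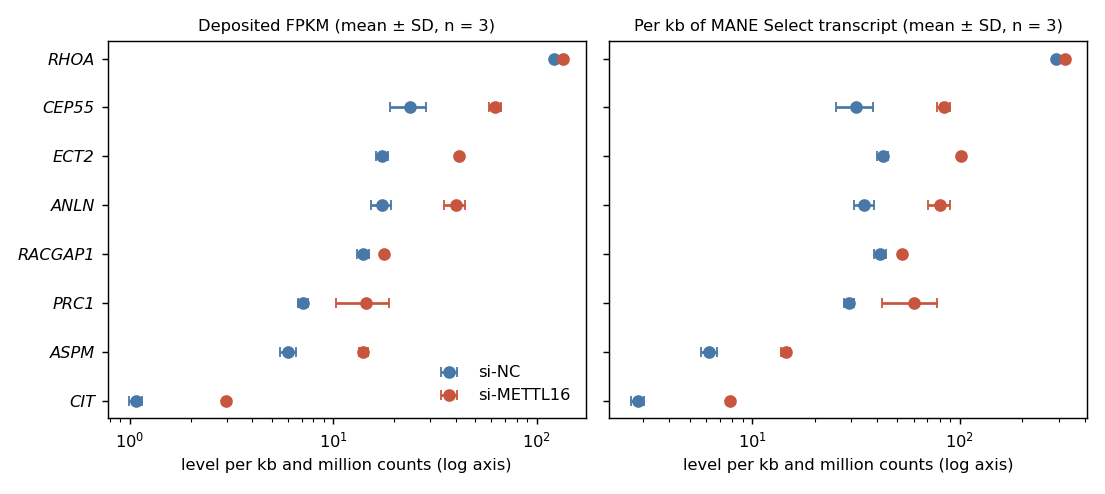
FPKM of the 8 genes on a log axis, as deposited (left) and recomputed with MANE Select lengths (right); points are means and bars SD (n = 3), si-NC in blue and si-METTL16 in red. RHOA is highest and CIT lowest on both scales, at 122 and 1.07 FPKM in si-NC cells on the left, while the order of the genes between them differs.

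The other genes of cytokinesis were read from lists written from general knowledge. In the central spindle list all 12 genes were called higher, against 18.4% of all tested genes, with a median log2FC of 1.02. CDCA8, which encodes the passenger protein borealin, rose most, from 12.4 ± 1.11 to 38.5 ± 0.546 FPKM (SD, n = 3; log2FC 1.65, edgeR adjusted p = 8.34e-05). KIF4A had the highest mean FPKM of the list over both groups and rose with a log2FC of 1.40 (edgeR adjusted p = 8.34e-05). The microtubule-stabilising CLASP2 rose least (log2FC 0.25, edgeR adjusted p = 0.0207).

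None of the 10 septins tested, of 13 listed, was called higher in the edgeR fit of all 6 samples. In that fit 1, SEPTIN7, was higher at an unadjusted p under 0.05 (log2FC 0.29, edgeR adjusted p = 0.0585). SEPTIN6 (log2FC -1.17, edgeR adjusted p = 0.000114) and SEPTIN10 (log2FC -0.46, edgeR adjusted p = 0.00600) were called lower, and the remaining 8, among them SEPTIN7 with the highest mean FPKM over both groups (19.5 ± 2.71 and 23.5 ± 1.2 FPKM, SD, n = 3), were not called. The share called lower, 20%, was near the 17.5% of all tested genes, while 0% were called higher against 18.4%. With the DESeq2 Wald test, with limma on voom values and in the edgeR fit without si-NC replicate 2, 1 septin was called higher. Septins are filament-forming GTPases that ANLN gathers at the ring.

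In the abscission list of 28 genes, ESCRT subunits and their partners, 4 were called higher, 7 lower and 17 were not called. These shares, 14.3% higher and 25% lower, are near the 18.4% and 17.5% of all tested genes. The ESCRT-III subunits CHMP1B and CHMP2B and the Rab11 effector RAB11FIP3 rose with log2FC of 0.26, 0.41 and 0.75, besides KIF20B. The median log2FC was -0.11. The mitotic kinesin KIF20B rose from 5.73 ± 0.710 to 18.7 ± 0.825 FPKM (SD, n = 3; log2FC 1.73, edgeR adjusted p = 0.000113). At the other end was MITD1, an ESCRT-binding abscission protein (log2FC -0.41, edgeR adjusted p = 0.0136). CHMP4B, an ESCRT-III subunit with the highest mean FPKM of the list over both groups, was at 75.8 ± 1.76 and 77.4 ± 1.47 FPKM (SD, n = 3) and not called. The number of called genes fell from 11 to 6 without si-NC replicate 1 and to 7 without si-METTL16 replicate 3.

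Since ASPM and CIT are microcephaly genes, a list of 24 other such genes, which is not complete, was read too. Of these, 14 were called higher, 3 lower and 7 were not called (median log2FC 0.60). That is 58.3% higher and 12.5% lower, against 18.4% and 17.5% of all tested genes. STIL, a centriole assembly protein, rose most (log2FC 1.42, edgeR adjusted p = 0.000397), and PHC1, a Polycomb protein, fell most (log2FC -0.61, edgeR adjusted p = 0.0201). COPB2, a vesicle coat subunit, had the highest mean FPKM of the list over both groups and fell from 39.4 ± 1.35 to 31.0 ± 2.17 FPKM (SD, n = 3; log2FC -0.32, edgeR adjusted p = 0.00759). The third gene called lower was CDK6, a G1 kinase (log2FC -0.30, edgeR adjusted p = 0.0143). KIF14 stands in this list and in that of the central spindle.

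The G2/M list of the Seurat package, without ANLN and ECT2, which it also holds, served as the reference for genes of the same cell cycle phase. It shares KIF23, AURKB, BIRC5, CDCA8 and NUSAP1 with the central spindle list and KIF20B with the abscission list. CENPE and NCAPD2 stand in it and in the microcephaly list. The medians of these lists therefore rest in part on the same genes. Of the 52 genes of the G2/M list, 49 were called higher, 94.2% against 18.4% of all tested genes. ANP32E alone was called lower (log2FC -0.65, edgeR adjusted p = 0.000447), 1.92% against 17.5%, while LBR and CTCF were not called. The middle of this list lay between log2FC of 0.81 and 1.30, with a median of 1.12. ANLN, ECT2, ASPM and PRC1 lay within that middle range. CIT and CEP55 lay above it, with 8 and 9 of the 52 genes higher. RACGAP1 and RHOA lay below it, with 47 and 50 of the 52 genes higher. The highest log2FC of the list was that of UBE2C (2.16, edgeR adjusted p = 7.01e-05), and its gene with the highest mean FPKM over both groups, CKS2, rose with 0.58 (edgeR adjusted p = 0.00883). These are positions in a list, and no test of a difference from it was made.

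**Figure D5:**
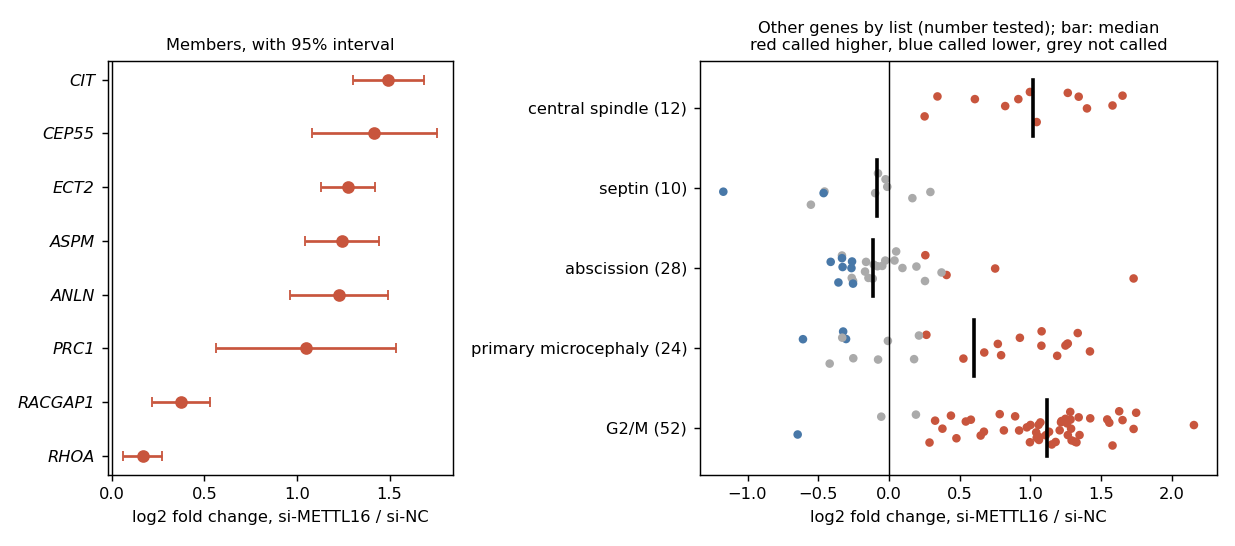
Log2 fold changes of si-METTL16 over si-NC: on the left the 8 cytokinesis genes with their 95% intervals, on the right each tested gene of 5 other lists as a point (red called higher, blue called lower, grey not called) with a bar at the median. The members run from 0.17 (RHOA) to 1.49 (CIT), the central spindle and G2/M lists have medians of 1.02 and 1.12, and the septin and abscission lists have medians of -0.09 and -0.11. The G2/M list shares genes with the central spindle, abscission and primary microcephaly lists.

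The mean log2 CPM profile of the 8 genes, centred on 0, was -0.62, -0.46 and -0.47 in control and 0.41, 0.59 and 0.54 in silenced samples. The genes nearest to it by Euclidean distance over the 6 samples were C9orf78 (distance 0.102), WBP11 (0.107), ALYREF (0.116), NUP205 (0.117) and VIM-AS1 (0.118), with log2FC between 0.97 and 1.09. Any gene with a like group difference and a small spread is near by this measure.

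Other genes overlap members too. ANLN overlaps KIAA0895 (MATCAP2 in GENCODE v44) on the opposite strand by 78 exonic bases, and RHOA overlaps TCTA there by 214 bases; both partners had far fewer counts (2850 and 2135 over the 6 samples, against 27501 for ANLN and 56060 for RHOA). PRC1-AS1, which overlaps PRC1 by 1892 bases, had 10 counts in all. RHOA also shares 701 exonic bases with ENSG00000290318 on the same strand, a GENCODE v44 gene that is absent from the expression table and so has no count. Whether counting used strand was not given in the sources used here.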

How the data were processed

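RNA-seq of 6 PANC-1 samples was used, 3 si-NC and 3 si-METTL16, with group and number from the titles. Raw counts of each gene, and FPKM from the same counts, were deposited by the authors; the submitters' notes name HISAT2 2.0.4, StringTie 1.3.0 and GRCh38, with roles, counting program, annotation release and strand not given in the sources used here. Gene symbols stored as dates (27) were restored from gene identifiers. Counts were scaled by TMM, filtered with filterByExpr (minimum count 10, minimum total 15) to 15089 genes and tested by quasi-likelihood (edgeR 4.0.16, glmQLFit then glmQLFTest; R 4.3.3), two-sided, with Benjamini-Hochberg adjustment over all tested genes and a threshold of 0.05; the study names limma, which was run as an alternative (limma 3.58.1), with DESeq2 1.42.0. A standard error (SE) is the log2 fold change over the square root of F. The 8 members and the lists were chosen with earlier results of these data known, so their counts are no independent evidence. Genes named from a list were its highest and lowest called log2 fold change and its highest mean FPKM. All partners of the ratios, the 5 nearest profiles, overlapping genes and genes shared between lists were named too. CHMP1B, CHMP2B, RAB11FIP3, CDK6, LBR and CTCF were named after their values were seen. The G2/M list came from Seurat 5.3.0, promoters from RefSeq and gene models from GENCODE v44. The edgeR step was tested on simulated counts of 15089 genes with 200 changed, in equal numbers at absolute log2 fold changes of 1 and 2 and in both directions. Of these 147 were called, with the right sign for 147, and 12 unchanged genes were called. At 1 it recovered 63 and at 2 it recovered 84 genes. In the data 35.9% of genes were called, far more than were changed in the simulation, so its rates of recovery and false calls need not hold there. A planned list is not reported here. No pair of samples was a duplicate library (chi-square per degree of freedom at least 15.9). At these depths the members had at least 381 counts per sample. How much of their spread between replicates was counting error was not tested.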

Additional observations from a re-analysis of the deposited data

How the results depend on the processing

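All 8 cytokinesis genes stayed higher and called with DESeq2 size factors, without a filter on low genes, with at least 10 counts in every sample, with the DESeq2 Wald test, with limma on voom values and on log2(FPKM + 1) or log2(FPKM + 0.1), with the replicate block and with the PRC1 counts summed; at an adjusted p under 0.01, 7 of them were called, RHOA being the exception. Under that threshold 3035 genes were called in place of 5418, with 3 of the abscission list; fewer calls follow from the threshold itself. Same-numbered samples hardly deviated together (correlations 0.0253 to 0.0371, each sample nearest to its own number, a hint from the data only), so the numbers were not taken as a pairing. With the replicate block 5013 genes were called, and it moved no list by over 1.5 times (abscission 10). Among the members, the block lowered the SE most for ANLN (0.112 to 0.0583), CEP55 (0.143 to 0.0918) and PRC1 (0.206 to 0.156). It fell less for RACGAP1, ASPM and RHOA and rose slightly for ECT2 and CIT. The adjusted p fell for no member. Limma on log2(FPKM + 1) moved CIT, a low gene, to a log2 fold change of 0.94, since the pseudocount understates low genes. Leaving out 1 sample at a time, between 4159 and 4526 genes were called, 7 to 8 members and 6 to 9 genes of the abscission list; these fits have fewer samples. The log2 fold change then ranged from 0.15 to 0.17 for RHOA, from 0.92 to 1.27 for PRC1 and from 0.32 to 0.40 for RACGAP1. The ratio of RHOA to RHOC ranged from 0.09, without si-METTL16 replicate 2, to 0.52, without si-METTL16 replicate 3; these ratios cannot pass the threshold in any case. Whether depth limits any member was not tested, and 3 replicates limit all of them.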
